A study of Homo sapiens with 6 samples.

Results

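The genes described here are 34 that build, serve or control the protein folding machinery of the endoplasmic reticulum (ER): its stress sensors, chaperones, disulfide isomerases, the degradation pathway for misfolded proteins (ERAD) and parts of the unfolded protein response (UPR). They were taken as members of this pathway, and the differences between the groups were no part of the rule. The list was chosen with earlier results of these data known. Each gene covers all probe sets whose annotation names that gene alone, together 115 probe sets of the 49293 tested on the array. Each of the 34 genes, of 18132 in all, is represented by its brightest probe set over the 6 arrays, and 27 of them had more than 1 to choose from. The RNA came from SH-SY5Y, a human cell line of neuroblastoma origin used as a model of neurons, grown in serum-containing MEM and F12 medium. The endosulfan group (3 arrays) was exposed to 3 µM of the organochlorine insecticide endosulfan for 24 h, a dose given as 1/5 of the LC50, and the control group (3 arrays) is labelled only as control, and what it received in place of the insecticide is not stated there. The labels call the arrays biological replicates without naming a culture, passage or day, so p-values measure the spread between these samples, and the number of arrays limits the precision.

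Proteins that enter the ER are folded by the HSP70-type chaperone BiP (HSPA5) and its J-domain partners, by the HSP90-type chaperone GRP94 (HSP90B1), by the lectin chaperones calnexin and calreticulin, and by disulfide isomerases. When unfolded proteins build up, the membrane sensors IRE1 (ERN1), PERK (EIF2AK3) and ATF6 are activated: IRE1 splices the XBP1 mRNA, PERK lowers translation, and cleaved ATF6 and spliced XBP1 raise transcription of chaperones and ERAD genes. ERAD proteins recognise terminally misfolded clients and pass them back to the cytosol for the proteasome. The deposited values measure RNA per probe set, so they carry no information on XBP1 splicing, ATF6 cleavage or phosphorylation of the sensors.

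Many of these genes share a promoter element, the ER stress response element (ERSE), bound by NF-Y at its CCAAT end and by ATF6 or XBP1 at its CCACG end. It was searched on both strands as CCAAT, 9 free bases and CCACG, and the shorter ERSE-II as ATTGG, 1 free base and CCACG, in RefSeq promoters of GRCh38.p14 that run from 250 bases before to 50 after the gene's start. Promoters were matched for 31 of the 34 genes, all but PDIA3, DERL1 and DERL3. ERSE letters stood in 7 of the 31 (22.6%), HSPA5, HSP90B1, XBP1, CANX, CALR, CRELD2 and ERO1B, against 16 of 14425 promoters of tested genes (0.111%). ERSE-II letters stood in 3 of the 31 (9.68%), HERPUD1, HYOU1 and SDF2L1, against 12 of 14425 (0.0832%). The CCACG and CCAAT ends, which are parts of both elements, were common on their own: CCACG stood in 67.7% of the members' promoters and 44.6% of all, and CCAAT in 77.4% and 36.4%. The element was first described on genes of this kind, so its excess in them is background to the expression values and not a result of the exposure. The promoters of BiP and GRP94 are shown because these chaperones had the largest differences on the lower side among the 34 genes, with every ERSE match in capitals on the gene's own strand (BiP chr9:125241294-125241593, minus strand; GRP94 chr12:103930160-103930459, plus strand).
HSPA5: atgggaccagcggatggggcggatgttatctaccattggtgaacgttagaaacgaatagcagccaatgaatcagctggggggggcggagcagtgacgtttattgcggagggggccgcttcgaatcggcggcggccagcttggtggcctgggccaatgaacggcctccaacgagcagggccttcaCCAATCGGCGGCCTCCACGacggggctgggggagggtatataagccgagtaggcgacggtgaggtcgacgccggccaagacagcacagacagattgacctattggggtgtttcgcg
HSP90B1: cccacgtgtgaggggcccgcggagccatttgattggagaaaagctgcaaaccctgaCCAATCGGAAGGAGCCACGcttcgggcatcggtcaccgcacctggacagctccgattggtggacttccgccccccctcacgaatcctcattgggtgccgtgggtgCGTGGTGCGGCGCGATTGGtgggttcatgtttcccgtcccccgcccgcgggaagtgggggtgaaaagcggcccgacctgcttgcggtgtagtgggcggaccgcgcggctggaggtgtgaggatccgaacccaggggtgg
The HSPA5 match lies 66 to 48 bases before the start, and the HSP90B1 matches lie 194 to 176 and 89 to 71 bases before it, the second on the opposite strand. Elements of 5 further genes are shown to set genes on the lower side (XBP1, CANX, HERPUD1) beside genes on the higher side (SDF2L1, CRELD2), each read from the strand that spells the element, with the fixed letters in capitals and the free spacer in lower case.
XBP1: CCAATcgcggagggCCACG
CANX: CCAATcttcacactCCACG
HERPUD1: ATTGGgCCACG
SDF2L1: ATTGGtCCACG
CRELD2: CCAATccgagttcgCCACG
They lie at chr22:28800603-28800621 (XBP1, minus strand gene), chr5:179698778-179698796 (CANX, plus), chr16:56932025-56932035 (HERPUD1, plus), chr22:21642114-21642124 (SDF2L1, plus) and chr22:49918554-49918572 (CRELD2, plus). A match is a description of letters, not evidence that a factor bound there.

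Before the results, array quality has to be stated. The arrays' upper quartiles were lower in every endosulfan array (6.58 to 6.66, log2) than in every control (6.67 to 6.74), with an exact permutation p of 0.1. No pair of arrays held identical values, and the arrays correlated (Pearson's r over all probe sets, themselves not independent) at 0.985 to 0.995 within and 0.964 to 0.994 between the groups. The bacterial poly-A transcripts spiked into the RNA before labelling were at 6.13, 7.73 and 5.84 in controls 1 to 3 and at 7.81, 7.73 and 8.80 in endosulfan 1 to 3, a difference of 1.55 with an exact permutation p of 0.2 (two-sided, smallest possible 0.1). The poly-A levels of the groups overlapped, as control 2 (7.7282) lay just above endosulfan 2 (7.7265). The hybridisation controls, added after labelling, did not overlap. They were at 10.05 ± 0.29 in control and 10.70 ± 0.19 in endosulfan arrays (SD, n = 3 each, exact permutation p = 0.1). GAPDH control probe sets read higher at the 3' than at the 5' end of the transcript, a gap that widens as RNA degrades, by 0.75 ± 0.06 in control and 0.84 ± 0.04 in endosulfan arrays (SD, n = 3 each, exact permutation p = 0.1). The same gap for beta-actin was 3.59 ± 0.07 in control and 3.67 ± 0.10 in endosulfan arrays (SD, n = 3 each, exact permutation p = 0.3), with overlapping groups. The upper quartiles, the hybridisation controls and the GAPDH gap thus parted the groups, and the poly-A levels and the beta-actin gap did not. Values with the poly-A level as a covariate are given further on, and the part of the others in the results was not tested. All 12 measured markers of adrenergic neuroblastoma lay above the upper quartile on every array, as did 2 of 18 markers of other cell types (PDGFRB and VIM). The mean of those 12 line markers also stood apart between the groups, at 11.03 to 11.26 in control and 10.70 to 10.85 in endosulfan arrays, with 7 of 12 on the lower side, and the part of this in the results below was not tested.

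Endosulfan-exposed cells had lower average values of the main ER chaperones BiP and GRP94 and higher values of a few ERAD genes, but none of the 34 differences passed the test. Of the 5 J-domain cochaperones and partners, 1 was on the lower side (20%, against 39.8% of all genes) and 4 on the higher. With limma and Benjamini-Hochberg adjustment over all 18132 genes, 0 members were called higher, where 0.00552% of all genes were, and 0 lower, where 0% of all genes were. The adjusted p of the members ran from 0.196 to 0.981. At an unadjusted p below 0.05, which is a description and not a call, 9 members were lower and 2 higher (11 of 34, 32.4%), where the background over all genes was 10.5% lower and 6.64% higher (17.1% in all). The groups of arrays did not overlap in 14 members (41.2%), 8 with every endosulfan array below and 6 with every one above every control array, where the background was 22.6% (10.2% below and 12.4% above). There were 20 members on the lower side (58.8%, against 39.8% of all genes), and their median log2 fold change was -0.08, against 0.05 over all genes. Differences of 1.5-fold or more were lower in 5 members (7.09% of all genes) and higher in 1 (1.13% of all genes). The count at an unadjusted p below 0.05 went from 11 to 7 without control 3, where 7.75% of all genes were lower and 3.44% higher. It was also 7 without endosulfan 3 (5.88% and 3.04% of all genes). It rose to 15 without control 2 (12.5% and 10.1%) and to 12 without endosulfan 2 (13.6% and 8.21%). The share over all genes thus fell and rose with it.

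Most members are bright, and over the whole array the dimmest genes passed the unadjusted threshold least often. With all genes split by level into 4 bins of equal size, 18 of the 34 lay in bin 4, the brightest, where 13.6% (lower) and 11.2% (higher) of all genes passed the unadjusted threshold and where the groups of 28.6% of genes did not overlap. In that bin 5 members were lower and 1 higher at that threshold, and the groups of 9 did not overlap. The members' median there was -0.24, against 0.07 for all genes of the bin, and 12 of the 18 were on the lower side, against 40.9%. In bin 3, 1 of 9 members was lower and 1 higher, against 17.3% and 7.32% of all genes, and the members' median of 0.09 was above the 0.01 of all genes there. In bin 2, 3 of 5 members, ATF6, EIF2AK3 and DNAJC10, were lower at that threshold, against 8.96% of all genes there. The members' median in bin 2 was -0.44, against 0.05. In bin 1, the dimmest, 0 of 2 passed in either direction, and the members' median was 0.10, against 0.06.

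**Figure D1:**
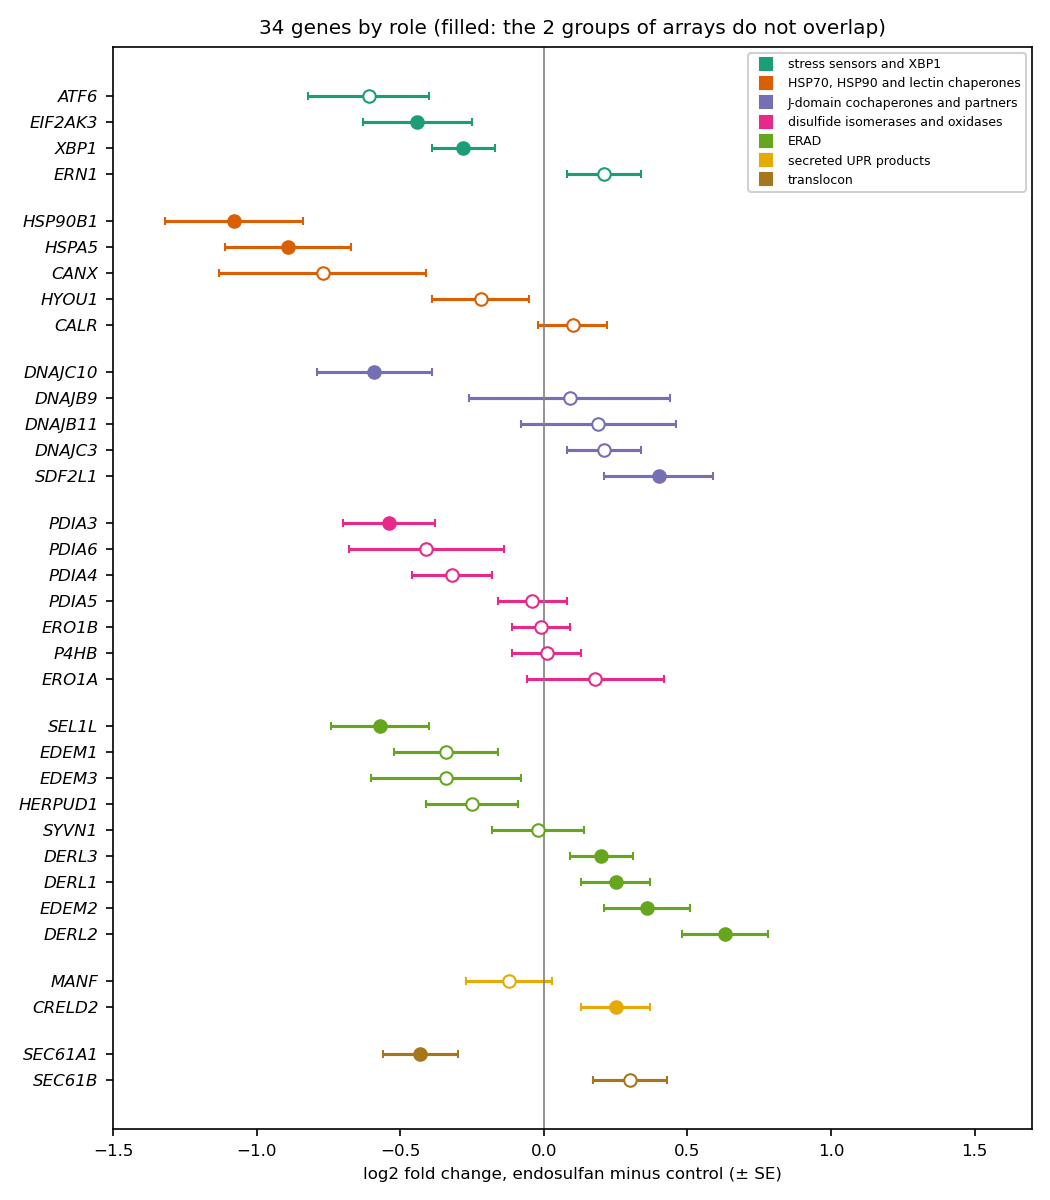
Log2 fold change (endosulfan minus control, horizontal axis, with its standard error from limma) of the 34 genes, 1 row a gene, grouped by role in colour, with filled points where the control and endosulfan arrays do not overlap. HSP90B1 at -1.08 and HSPA5 at -0.89 lie farthest to the left, and DERL2 at 0.63 farthest to the right.

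Among the sensors, ATF6 and PERK were lower on average and IRE1 was not. The value of ATF6, the membrane-bound transcription factor, was 6.02, 5.58 and 5.25 in controls 1 to 3 and 4.79, 5.26 and 4.98 in endosulfan 1 to 3 (log2). Endosulfan 2 lay just above control 3, so the groups overlapped. The log2 fold change was -0.61 ± 0.21 (SE), 1.52-fold lower, and the limma adjusted p 0.235. EIF2AK3, which encodes PERK, the kinase of eIF2 alpha, was at 6.00, 5.42 and 5.50 in control and 4.96, 5.39 and 5.26 in endosulfan arrays. The groups were parted only by the step from 5.42 in control 2 to 5.39 in endosulfan 2, and the log2 fold change was -0.44 ± 0.19 (SE, limma adjusted p = 0.288). Without control 1 the difference of EIF2AK3 was -0.26. Without control 1 and endosulfan 1 it was -0.14 and that of ATF6 -0.30, so these arrays carried much of both.

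ERN1, which encodes the kinase and RNase IRE1, was at 4.50, 4.44 and 4.68 in control and 4.92, 4.63 and 4.70 in endosulfan arrays. These values were near or below the arrays' medians of 4.89 to 4.94, and the groups overlapped, with a log2 fold change of 0.21 ± 0.13 (SE, limma adjusted p = 0.409). XBP1, the transcription factor whose mRNA IRE1 splices, was at 8.03, 8.10 and 8.11 in control against 7.80, 7.93 and 7.67 in endosulfan arrays. Every endosulfan array lay below every control array, by 0.28 ± 0.11 (SE) on average, 1.21-fold, with a limma adjusted p of 0.271. XBP1 has 1 probe set here, and the value counts its spliced and unspliced forms alike as far as the annotation tells.

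BiP, the chief HSP70 of the ER, stood at 10.22, 9.42 and 9.47 in controls 1 to 3 and at 8.72, 8.98 and 8.75 in endosulfan 1 to 3. All 3 endosulfan arrays were below all controls, and control 1 was far above the other controls. The means were 9.70 ± 0.45 and 8.81 ± 0.14 (SD, n = 3 each), which gave a log2 fold change of -0.89 ± 0.22 (SE), 1.85-fold lower, with a limma adjusted p of 0.196, rank 332 of 18132 by p. Without control 1 the difference was -0.63. With the poly-A level as a covariate it was also -0.63, with a limma adjusted p of 1.

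GRP94, the ER's HSP90, had the largest difference of the 34 genes: 10.28, 9.54 and 9.85 in control against 8.42, 9.15 and 8.88 in endosulfan arrays. The groups again did not overlap, and control 1 and endosulfan 1 were the extremes. The log2 fold change was -1.08 ± 0.24 (SE), 2.11-fold lower, with a limma adjusted p of 0.196 and rank 168 of 18132. The value lay between -1.25 and -0.88 with 1 array left out and was -0.69 without control 1 and endosulfan 1.

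The lectin chaperones, which hold glycoproteins during folding, did not behave alike. Calnexin (CANX) was at 10.74, 9.85 and 9.98 in control and 8.74, 10.12 and 9.40 in endosulfan arrays. Endosulfan 2 was above 2 of the 3 controls, so the mean difference of -0.77 ± 0.36 (SE, limma adjusted p = 0.319) was about the size of the spread within the endosulfan group (SD 0.69). It was -0.49 without control 1, -0.43 without endosulfan 1 and -0.16 without both. Calreticulin (CALR) was at 6.39, 6.6 and 6.54 in control and 6.51, 6.79 and 6.55 in endosulfan arrays, a log2 fold change of 0.10 ± 0.12 (SE). HYOU1, a large HSP70 relative that exchanges nucleotide on BiP, was at 8.07, 8.04 and 8.37 against 8.25, 7.75 and 7.81, with a log2 fold change of -0.22 ± 0.17 (SE) and overlapping groups. The median log2 fold change of this group of 5 genes was -0.77, against 0.05 over all genes. That median is the value of CANX itself. Of the 5, 4 were on the lower side (80%, against 39.8% of all genes) and 2 were below 0.05 by unadjusted p (40%, against 17.1%). HYOU1 was on the lower side by its brightest probe set. Of its 9 probe sets 4 were lower and 5 at or above 0, from -0.22 to 0.24.

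**Figure D2:**
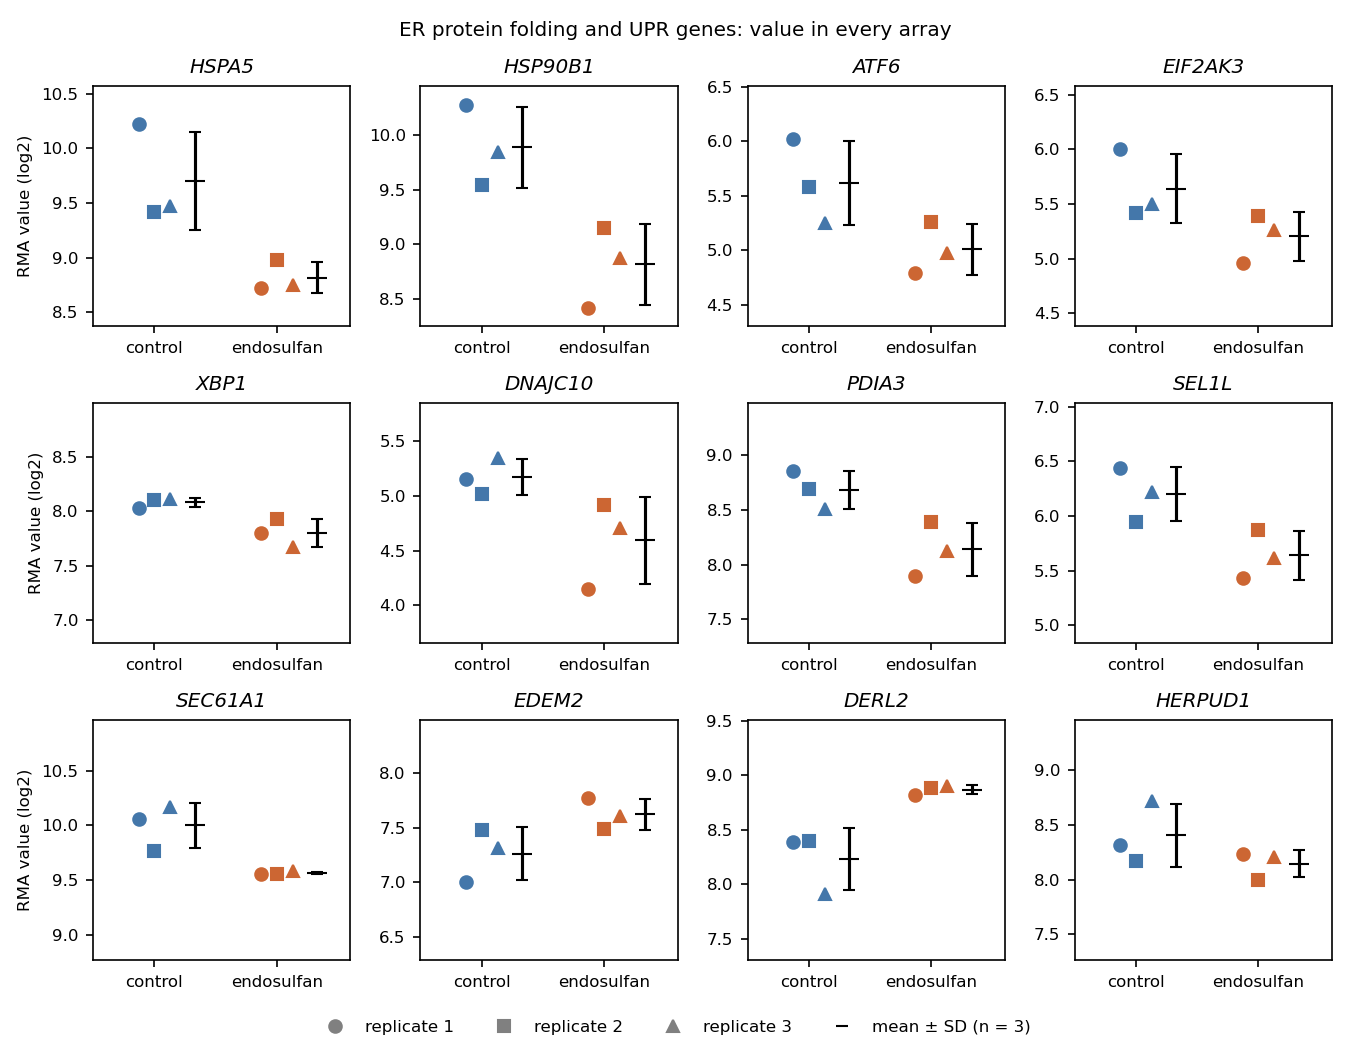
RMA value (log2, vertical axis, the same span of 2.2 in every panel) of 12 genes in each array, controls in blue and endosulfan in orange, the symbol giving the replicate number and the bar the mean ± SD (n = 3). HSPA5, HSP90B1, SEC61A1 and DERL2 show groups that do not overlap, while ATF6 and HERPUD1 show overlap.

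The J-domain cochaperones, which stimulate BiP's ATPase and bring it clients, mostly lay on the higher side or varied too much to tell. DNAJC10 (ERdj5), a disulfide reductase that serves ERAD, was the exception: it was at 5.15, 5.02 and 5.35 in control and 4.15, 4.92 and 4.71 in endosulfan arrays. The groups did not overlap, and the log2 fold change was -0.59 ± 0.20 (SE, limma adjusted p = 0.234), or -0.36 without endosulfan 1. Endosulfan 1 and 3 lay below their arrays' medians (4.89 and 4.92), so these values were dim. Of the 7 probe sets of DNAJC10, 5 were lower and 2 higher, from -0.59 to 0.12, and their mean gave -0.25. DNAJB9 (ERdj4), a BiP partner that represses IRE1, was at 6.87, 6.64 and 6.33 against 6.03, 7.53 and 6.55, and DNAJB11 (ERdj3), which binds unfolded clients, at 7.64, 7.21 and 6.89 against 7.06, 7.96 and 7.28. In both of these genes endosulfan 2 was the highest of the 6 arrays, and without it the log2 fold change of DNAJB9 was -0.32 in place of 0.09. DNAJC3 (p58IPK) was at 2.94 to 3.25 in control and 3.21 to 3.44 in endosulfan arrays, below the arrays' medians throughout, so its log2 fold change of 0.21 ± 0.13 (SE) rests on dim values. SDF2L1, a partner of the J-domain proteins, was at 9.07, 9.84 and 9.61 in control and 9.90, 9.93 and 9.91 in endosulfan arrays. The endosulfan arrays were nearly level (SD 0.01) and above every control, with a log2 fold change of 0.40 ± 0.19 (SE, limma adjusted p = 0.319). Without control 1 it was 0.19.

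Of the 7 disulfide isomerases and oxidases, PDIA3 stood apart. PDIA3 (ERp57), the isomerase that works with calnexin and calreticulin, was at 8.86, 8.69 and 8.51 in control and 7.90, 8.39 and 8.13 in endosulfan arrays. The groups did not overlap, and the log2 fold change was -0.54 ± 0.16 (SE), 1.46-fold lower, with a limma adjusted p of 0.21. PDIA4 (ERp72) and PDIA6 (P5) had overlapping groups, with log2 fold changes of -0.32 ± 0.14 and -0.41 ± 0.27 (SE). PDIA6 in control 1, at 10.04, was far above the next control (9.24), and without control 1 the differences were -0.11 for PDIA6 and -0.21 for PDIA4. The archetypal isomerase P4HB was at 11.63 ± 0.17 and 11.64 ± 0.05 (SD, n = 3 each), so the difference was 0.01 ± 0.12 (SE). PDIA5 was at 7.10 ± 0.02 and 7.06 ± 0.15. ERO1A and ERO1B, the oxidases that recharge the isomerases, had log2 fold changes of 0.18 ± 0.24 and -0.01 ± 0.10 (SE). ERO1B was dim, at 3.45 to 3.61 on all arrays. Over the 7 genes the median was -0.04, 1 (14.3%) was below 0.05 by unadjusted p, against 17.1% of all genes, and the groups of 1 (14.3%) did not overlap, against 22.6%. These shares are below the background.

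The 9 ERAD genes were divided. SEL1L, the scaffold of the HRD1 ubiquitin ligase, was at 6.44, 5.95 and 6.22 in control and 5.43, 5.87 and 5.62 in endosulfan arrays. Every endosulfan array was below every control, with a log2 fold change of -0.57 ± 0.17 (SE), 1.48-fold lower, and a limma adjusted p of 0.215. SYVN1, which encodes the HRD1 ligase itself, was at 8.33 ± 0.17 and 8.31 ± 0.26 (SD, n = 3 each).

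The derlins, rhomboid-like membrane proteins that act with HRD1 in moving clients out of the ER, lay on the other side by their brightest probe sets. DERL2 was at 8.39, 8.4 and 7.91 in control and 8.82, 8.88 and 8.90 in endosulfan arrays. This was the largest difference on the higher side among the 34 genes, 0.63 ± 0.15 (SE), 1.55-fold higher, with a limma adjusted p of 0.196 and rank 282 of 18132. The endosulfan arrays lay close together (SD 0.04), control 3 was the low control, and without it the difference was 0.47. With the poly-A level as a covariate it was 0.42, with a limma adjusted p of 1. DERL1 was at 7.98, 8.11 and 8.22 against 8.43, 8.39 and 8.25, and DERL3 at 6.22, 6.31 and 6.39 against 6.59, 6.43 and 6.5. In both the groups were parted by a small step, and the log2 fold changes were 0.25 ± 0.12 and 0.20 ± 0.11 (SE). The direction of DERL1 turned with the choice of probe set: it was -0.29 for the mean of its probe sets and -0.82 for the most variable one.

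EDEM proteins trim or recognise the mannose of misfolded glycoproteins. EDEM2, which starts the trimming, was at 7.0, 7.48 and 7.31 in control and 7.77, 7.49 and 7.61 in endosulfan arrays. The groups touched at 7.48 and 7.49, and the log2 fold change was 0.36 ± 0.15 (SE, limma adjusted p = 0.284), or 0.23 without control 1. EDEM1 and EDEM3 had log2 fold changes of -0.34 ± 0.18 and -0.34 ± 0.26 (SE) with overlapping groups. Without control 1 that of EDEM1 was -0.17, and without endosulfan 1 that of EDEM3 was -0.07. HERPUD1, a UPR-induced subunit of the HRD1 complex, was at 8.32, 8.17 and 8.72 against 8.23, 8.0 and 8.21, with a log2 fold change of -0.25 ± 0.16 (SE, limma adjusted p = 0.437), or -0.10 without control 3. Over the 9 ERAD genes the median log2 fold change was -0.02, and 1 was lower and 2 were higher by unadjusted p. The groups did not overlap in 1 lower and 4 higher genes. Over all genes 10.5% were lower and 6.64% higher by unadjusted p, and the groups did not overlap in 10.2% below and 12.4% above.

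The secreted UPR products and the translocon completed the list. CRELD2 was at 9.48, 9.79 and 9.67 in control and 9.97, 9.85 and 9.87 in endosulfan arrays, with every endosulfan array above every control. The log2 fold change was 0.25 ± 0.12 (SE, limma adjusted p = 0.327), or 0.16 without control 1. The other CRELD2 probe set, dim at means of 3.82 in control and 3.72 in endosulfan arrays, was at -0.10. MANF, a BiP-binding trophic factor, was at 10.59 ± 0.17 and 10.47 ± 0.20 (SD, n = 3 each). SEC61A1, the pore of the translocon through which proteins enter the ER, was at 10.06, 9.77 and 10.17 in control and 9.56, 9.56 and 9.58 in endosulfan arrays. The endosulfan arrays were all below the controls and nearly level, with a log2 fold change of -0.43 ± 0.13 (SE), 1.35-fold lower, and a limma adjusted p of 0.213. Its small partner SEC61B was at 11.50, 11.66 and 11.45 against 11.65, 12.02 and 11.82, with a log2 fold change of 0.30 ± 0.13 (SE, limma adjusted p = 0.3), so the subunits of the pore lay on opposite sides of 0.

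**Figure D3:**
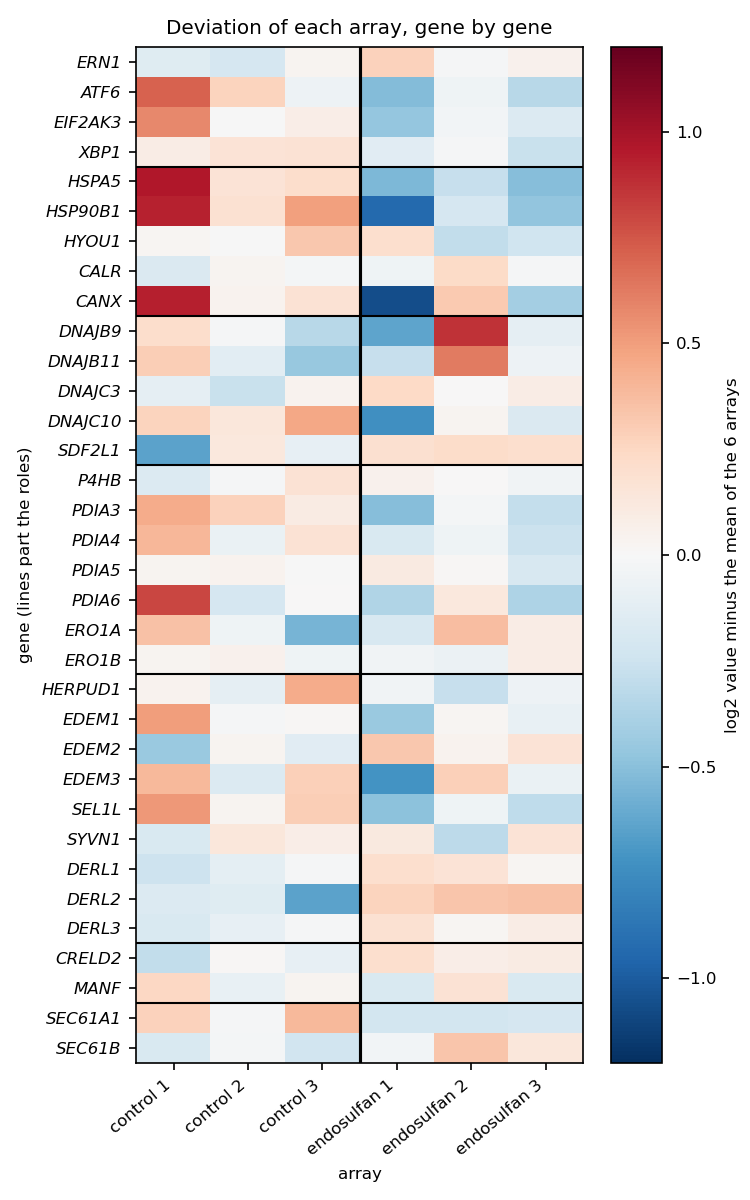
Log2 value of each of the 34 genes (rows, parted by role) in each of the 6 arrays (columns), as the difference from that gene's mean over the arrays, red above and blue below. Control 1 is the reddest and endosulfan 1 the bluest column for HSP90B1, CANX and ATF6, and endosulfan 2 stands out in red at DNAJB9.

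Control 1 and endosulfan 1 were the outer arrays for many of these genes. Among the 9 members lower at an unadjusted p below 0.05, control 1 was the highest control in 6 and endosulfan 1 the lowest endosulfan array in 7, and endosulfan 2 was the highest endosulfan array in 8. The same held for 84.4%, 65.1% and 74.4% of all 1899 genes lower at that threshold, so this order was that of the lower genes in general. Over all 34 members it held for 44.1%, 52.9% and 58.8%, and over all 18132 genes for 33.3%, 28.8% and 30.9%. The mean deviation of the 5 HSP70, HSP90 and lectin chaperones from the mean of the 6 arrays was 0.53, 0.08 and 0.24 in controls 1 to 3 and -0.48, -0.05 and -0.33 in endosulfan 1 to 3. Control 2 and endosulfan 2 were thus 0.08 above and 0.05 below the mean, near each other, and the part of the outer arrays in the difference was not tested. The mean deviation of all 34 members was 0.18, 0.00 and 0.04 in control and -0.19, 0.07 and -0.10 in endosulfan arrays, with endosulfan 2 above control 2. Without control 1 and endosulfan 1 the median log2 fold change of the 34 genes was -0.03, and 4 were lower and 3 higher by unadjusted p, where all genes had 5.48% and 3.87%. With the poly-A level added as a covariate none was below 0.05 in either direction, against 0.871% and 0.761% of all genes, and the median was 0.00. The log2 fold changes in that fit were -0.79 for HSP90B1, -0.63 for HSPA5, -0.47 for DNAJC10 and 0.42 for DERL2. Without the covariate they were -1.08, -0.89, -0.59 and 0.63, so these differences were smaller with it. Those of ATF6 (-0.61 with and without it) and PDIA3 (-0.56, against -0.54 without it) stayed about as large. Those of PDIA4, HERPUD1 and PDIA6 were near 0, at -0.05, -0.04 and 0.03, against -0.32, -0.25 and -0.41 without it.

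**Figure D4:**
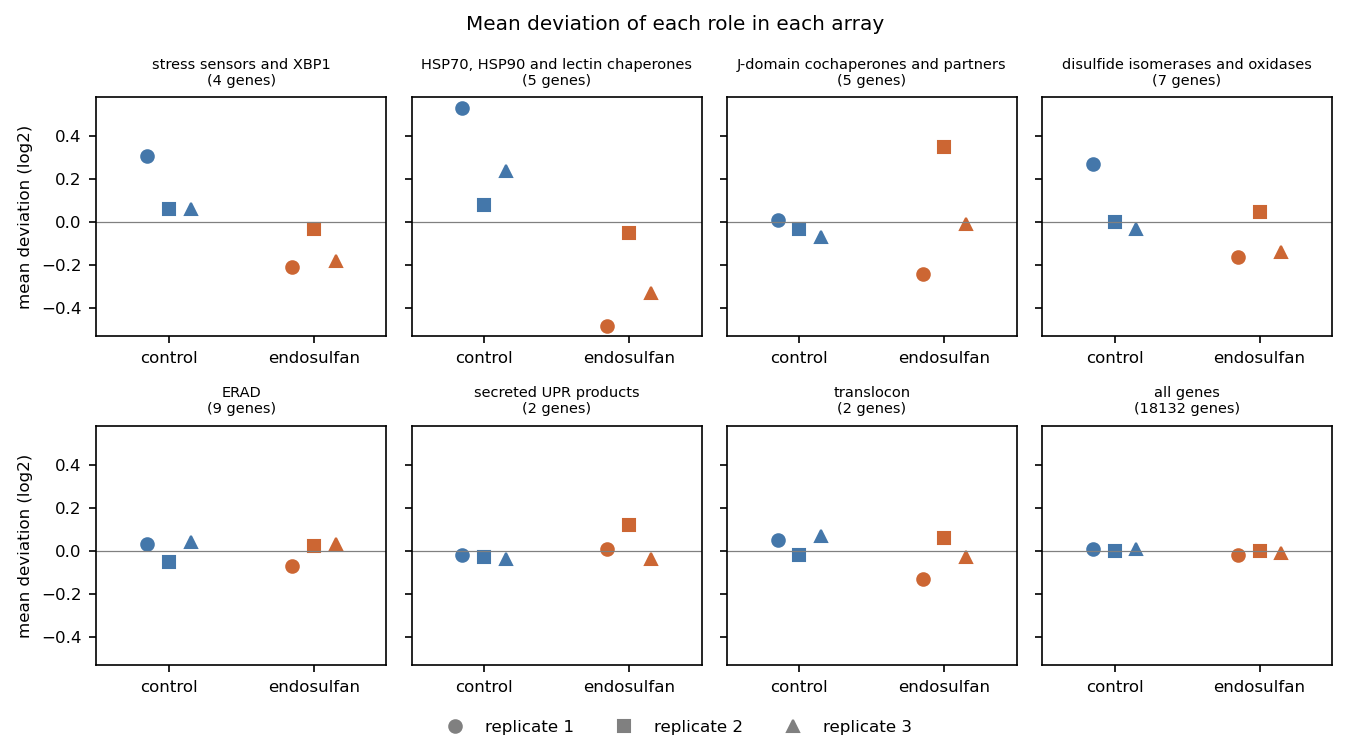
Mean deviation (log2, vertical axis) of the genes of each role from their own means over the 6 arrays, 1 point an array, controls in blue and endosulfan in orange, the symbol giving the replicate number. The chaperone panel spans 0.53 in control 1 to -0.48 in endosulfan 1, while the ERAD panel and all genes together stay between -0.07 and 0.04.

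Different probe sets of a gene gave a second view, though they share the RNA and are not replicates. All 7 probe sets of HSP90B1 were on the lower side, from -1.35 to -0.31, and all 6 of HSPA5, from -0.94 to -0.08, where the values nearest 0 came from dim probe sets. Of the 9 of CANX, 8 were lower, although these included values of -0.04 and -0.02, and the remaining probe set was at 0.06. Both of PDIA3 (-0.54 and -0.53), and all 3 of PDIA4, PDIA6, ATF6, EIF2AK3 and SEC61A1, were lower. Some of these lay near 0, as the other probe sets of SEC61A1 were at -0.07 and -0.01, 1 of ATF6 at -0.03 and 1 of PDIA4 at -0.09. The 6 probe sets of P4HB were all on the higher side, from 0.01 to 0.42. Over the 115 member probe sets 70 were lower (60.9%, against 39.9% of all probe sets), 21 were lower and 2 higher by unadjusted p (9.21% and 6.3% of all probe sets), and 0 passed the adjusted threshold by limma, where 0.00811% of all probe sets were called higher and 0% lower. The lowest adjusted p among them was 0.215.

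Other genes were less clear. The probe sets of 13 of the 27 members with several had both signs (48.1%, against 47.2% of such genes in all). The brightest DERL1 probe set was at 0.25, and the others were at -0.82 and -0.31, the first of these at 8.35, 7.10 and 7.03 in control and 6.05, 7.45 and 6.51 in endosulfan arrays. The brightest SEL1L probe set at -0.57 had dim companions between -0.06 and 0.13. HERPUD1 was the reverse: its brightest probe set had overlapping groups, while the next was at 8.46, 8.42 and 8.54 in control and 8.01, 7.98 and 8.10 in endosulfan arrays. In that probe set the groups were clearly apart, by -0.45 ± 0.10 (SE), and limma gave an adjusted p of 0.215 when all probe sets were tested. The brightest probe sets of CALR, P4HB and SEC61A1 carry the suffix by which the array's maker marks probes that may also bind other sequences. Those of 8 members, HSPA5, HSP90B1, CANX, PDIA3, PDIA6, EIF2AK3, DNAJC10 and DNAJB9, carry the suffix for probes shared among several transcripts, though the annotation names 1 gene for each.

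**Figure D5:**
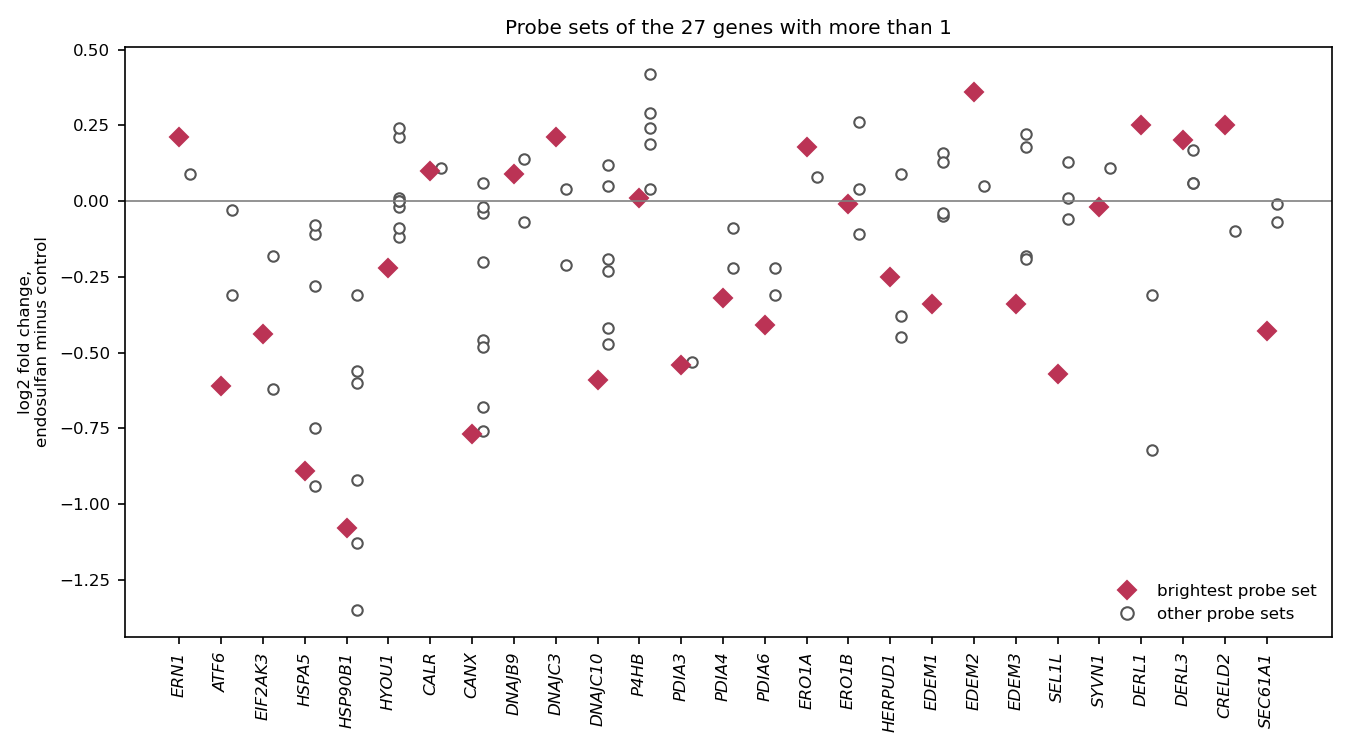
Log2 fold change (endosulfan minus control, vertical axis) of every probe set of the 27 genes that have more than 1, with the brightest as a filled diamond and the others as open circles. All probe sets of HSP90B1 and HSPA5 lie below 0, and those of DERL1 spread from -0.82 to 0.25.

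Of 106 further genes of the pathway, 101 were measured and 0 passed the adjusted threshold by limma. Their log2 fold change was below 0 in 58 (57.4%, against 39.8% of all genes) and above it in 43. The median was -0.04, against 0.05 over all genes. At an unadjusted p below 0.05 there were 21 lower and 7 higher genes (27.7%, against 17.1% of all genes). By group, 5 lower and 2 higher were among 22 UPR signalling genes, 6 and 2 among 21 other ERAD genes, 6 and 1 among 36 folding and glycosylation genes, and 4 and 2 among 22 translocation and export genes. ATF4, the factor translated when PERK acts, was at 11.39, 11.57 and 11.53 in control and 10.68, 10.53 and 10.79 in endosulfan arrays (log2 fold change -0.83 ± 0.12, SE), by a probe set that may also bind other sequences. DDIT3 (CHOP), the classic late target of PERK and ATF4, was at 4.53, 4.46 and 4.64 against 4.9, 4.4 and 4.7, overlapping and below the median on every array but endosulfan 1. ATF3, a transcription factor of the same stress response, and UBXN4, a membrane anchor of the ERAD ATPase, had log2 fold changes of -0.49 and -0.61. On the higher side were SEC11C, a catalytic subunit of the signal peptidase, at 8.17, 7.94 and 7.58 against 8.69, 8.88 and 8.59, and the ER peroxiredoxin PRDX4, at 11.10, 11.33 and 11.18 against 11.54, 11.66 and 11.60. NFYB, a subunit of the factor that binds the CCAAT end of the ERSE, was at 5.88, 6.30 and 5.10 against 6.67, 7.23 and 6.81. The limma adjusted p of these genes other than DDIT3 (0.681) ran from 0.196 to 0.202.

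Set beside the promoter letters, the 10 members with an ERSE or ERSE-II match had a median log2 fold change of -0.24, with 7 on the lower side and a range of -1.08 (HSP90B1) to 0.40 (SDF2L1). The 21 members with neither had a median of -0.04, with 12 on the lower side and a range of -0.61 (ATF6) to 0.63 (DERL2). Over all genes 39.8% were on the lower side and the median was 0.05. Genes with a match thus lay on both sides of 0. In bulk RNA of a culture, fewer cells expressing a gene and less of its RNA per cell cannot be told apart, and the arrays' shared normalization would have removed a shift of most transcripts in 1 direction.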

How the data were processed

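RNA of SH-SY5Y cells was measured on 6 one-colour arrays, 3 control and 3 endosulfan, grouped by the labels' agent field. The authors deposited log2 values from Affymetrix Expression Console with RMA (background correction, quantile normalization and probe set summary), per the submitters' processing notes. No version or filter was stated there. RMA forces the arrays to nearly 1 distribution. No scanner data were used, and probe sets carry no detection call. Of 49395 rows, 102 control probe sets were set aside; 24 poly-A probe sets among them gave the spike-in level. By the platform annotation, 44988 probe sets named 1 gene, 1832 several and 2473 none. Of those naming 1 gene, 44961 matched RefSeq (GRCh38.p14) by gene ID, with 0 symbols changed.

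Endosulfan was compared with control by limma 3.58.1 (lmFit, eBayes, R 4.3.3), two-sided, with Benjamini-Hochberg adjustment over 18132 genes or 49293 probe sets at a threshold of 0.05. The fit was tested on simulated data. Alternatives were a replicate block, quantile normalization, median centring, bright probe sets alone, trended robust moderation, array weights, no moderation, the mean or the most variable probe set, the spike-in covariate, leaving out arrays and a threshold of 0.10. Members, lists and tests were chosen with earlier results of these data known. All members are named, and of the further pathway genes DDIT3 and up to 3 in each direction by smallest p among those with groups that do not overlap. Figures used matplotlib 3.10.9.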

Additional observations from a re-analysis of the deposited data

How the results depend on the processing

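With limma's array weights, 12 members were called lower and 5 higher, where 16.6% of all genes were called lower and 16.1% higher. By unadjusted p 22 members were below 0.05, 15 lower and 7 higher, where 21.2% of all genes were lower and 23.4% higher. These weights rested on control 3 and endosulfan 3 (weights 4.22 and 5.46, against 0.271 to 0.662 for the other arrays), and their estimate stopped short of convergence. No other setting run called a member. The count at an unadjusted p below 0.05 was 7 with bright probe sets alone, where 13.2% of all genes were lower and 6.8% higher. It was 7 without control 1 and endosulfan 1 (5.48% and 3.87%) and 0 with the poly-A level added as a covariate (0.871% and 0.761%). In the covariate fit HSP90B1 was at -0.79, HSPA5 at -0.63, ATF6 at -0.61 and PDIA3 at -0.56. With 1 array left out the count ran from 7 to 15, the median log2 fold change of the members from -0.15 to -0.08, and the calls stayed at 0. The median was -0.22 with the most variable probe set of each gene. Same-numbered arrays deviated from their group means with correlations of -0.513, -0.403 and 0.051, so the numbers were not taken as pairs. With the replicate number as a block the median was -0.08, 0 members were called and 8 were below 0.05. In that fit 6.62% of all genes were lower and 3.18% higher by unadjusted p. No control array correlated best with the endosulfan array of its own number. In every setting that measured them 13 members stayed on the lower side and 7 on the higher, and 14 took both signs; the setting with bright probe sets alone held 30 of the 34, without ERN1, DNAJC3, DNAJC10 and ERO1B, and for genes whose groups do not overlap this follows from the arrays when 1 is left out. Dim probe sets (DNAJC3, ERO1B) have no detection call here.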

Other observations

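Outside the 34 genes, 18 tested genes had an ERSE or ERSE-II match in their promoters, and they were named here after their values were seen. Of these, 7 had a log2 fold change below 0 and 11 above it, the median was 0.10, and by unadjusted p 3 were lower and 2 higher. Over all genes 39.8% were below 0 and the median was 0.05. By unadjusted p 10.5% of all genes were lower and 6.64% higher, and the groups of 22.6% did not overlap. FICD, which adds AMP to BiP, was at a mean of 5.29 in control and 5.67 in endosulfan arrays, with groups that do not overlap and a limma adjusted p of 0.238. SERP1, a translocon-associated protein, was at 11.27 and 11.61, also without overlap (limma adjusted p 0.226). EIF2A, a translation initiation factor, was at 6.89 and 5.85, with every endosulfan array below every control (limma adjusted p 0.196). None of the 18 passed the adjusted threshold.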
